A study of Mus musculus with 12 samples.

Results

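A set of 6 genes of histamine and monoamine handling was followed through a bulk RNA-seq study of mouse cortex. They are the breakdown enzymes Hnmt, Maoa and Maob and the histamine receptors Hrh1, Hrh2 and Hrh3. The members were taken as the rows whose Ensembl identifier carries one of these 6 symbols in the GENCODE M21 annotation, and they make up 6 of the 54232 gene identifiers in the count table. The set was put together with genotype results of these same libraries known. Every mutant against wild-type value for the 6 genes is therefore a description. Calls of these genes in that contrast are listed for scale and are no support for a difference. The mice were C57BL/6J, 12 weeks old, and either wild type or homozygous for the Y446C allele of Tbl1xr1 (Tbl1xr1Y446C/Y446C), with 6 mice of each genotype and 3 females and 3 males in each. Tbl1xr1 encodes a subunit of a nuclear receptor corepressor complex. The allele is carried by every cell of the homozygotes, so the contrast is not restricted to one cell type, and in RNA from whole cortex fewer cells of a type and less RNA per cell cannot be told apart. Each library is 1 mouse and takes its name from sex, genotype and the number of the animal.

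Histamine in the brain is released by neurons of the hypothalamus that project widely, and mast cells add to it. It acts on G protein-coupled receptors: H1 (Hrh1) signals through Gq, H2 (Hrh2) raises cyclic AMP through Gs, and H3 (Hrh3) is a Gi/o-coupled receptor that limits transmitter release from nerve endings. Brain histamine is inactivated mainly by histamine N-methyltransferase (Hnmt), which transfers a methyl group from S-adenosylmethionine, and the methylated product is then oxidised by monoamine oxidase B (Maob). Monoamine oxidase A (Maoa) is a related flavoenzyme of the outer mitochondrial membrane that prefers serotonin and noradrenaline.

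One library stands apart and bears on every value that follows. Female mutant 3 held 3748515 counts, against 21238427 to 32669138 in the other 11 libraries, and mitochondrial genes took 31.6% of its counts against 5.23% to 10.4%. Fold changes of the members and of the further genes named are therefore given with and without it, as are counts over lists. Values are CPM, the count of a gene as parts of a library total of 1000000 after the totals were scaled by trimmed means. A count of 3 corresponds to 0.0861 to 0.137 CPM in the 11 deeper libraries and to 1.16 CPM in female mutant 3. Tbl1xr1 itself lay between 92.7 and 113.5 CPM in the wild types and between 90.7 and 97.9 in the mutants. The defining cortical excitatory markers Slc17a7 and Camk2a were present in all 12 libraries, at 192.8 to 860.5 CPM and 1674 to 2803 CPM. The level of other regions' markers varied between libraries: the summed level of 13 striatal neuron markers ran from 864 to 2882 CPM in wild types and from 531 to 1732 in mutants. All 13 had a negative log2 fold change with and without female mutant 3, with medians of -0.79 and -0.85. By edgeR's quasi-likelihood test 0 of 13 were called after Benjamini-Hochberg adjustment, against 0.00555% of all genes tested. At an unadjusted p under 0.05 there were 7, against 3.96% of all genes tested. Without that library there were 10, against 7.46%.

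In GRCm38 with GENCODE M21, Hnmt (ENSMUSG00000026986) lies on chromosome 2 at 24002910 to 24049394 on the minus strand, and Hrh3 (ENSMUSG00000039059) lies on the same chromosome at 180099465 to 180104488, also on the minus strand. Maoa and Maob are neighbours on the X chromosome. Maoa (ENSMUSG00000025037) occupies 16619698 to 16687818 on the plus strand and Maob (ENSMUSG00000040147) 16709282 to 16817366 on the minus strand, so that their 3′ ends face each other across 21463 bases. Hrh1 (ENSMUSG00000053004) lies on chromosome 6 at 114397936 to 114483296, plus strand, and Hrh2 (ENSMUSG00000034987) on chromosome 13 at 54192129 to 54236180, plus strand. Counts were made over whole genes. Hrh2 and Hrh3 each overlap 1 annotated antisense gene, Gm16578 and Gm17180, and the strand setting of the counting is not stated in the labels, so their reads cannot be told apart from antisense reads. The counts listed for these antisense genes were 0 to 1 and 0 to 2 per library.

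Promoter sequence was available for 5 of the 6 members in the RefSeq table for GRCm38.p6, as 9 windows of the 250 bases before a start site. The windows of Hnmt, Maoa and Hrh3 are shown because they belong to the enzyme and the receptor with the largest genotype differences and to the enzyme used as a reference within each library. They are written 5′ to 3′ on the gene's own strand, with the GC box GGGCGG, searched on both strands, in capitals.
Hnmt, chr2:24049380-24049629, minus strand: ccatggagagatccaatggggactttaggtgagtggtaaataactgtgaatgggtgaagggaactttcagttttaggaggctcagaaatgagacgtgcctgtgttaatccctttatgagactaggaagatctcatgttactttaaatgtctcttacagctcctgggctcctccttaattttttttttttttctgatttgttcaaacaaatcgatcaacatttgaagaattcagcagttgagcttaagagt
Maoa, chrX:16619448-16619697, plus strand: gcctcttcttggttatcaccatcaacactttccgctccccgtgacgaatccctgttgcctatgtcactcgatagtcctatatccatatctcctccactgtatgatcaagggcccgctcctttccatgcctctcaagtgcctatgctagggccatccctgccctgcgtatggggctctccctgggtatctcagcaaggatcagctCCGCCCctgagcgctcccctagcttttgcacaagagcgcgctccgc
Hrh3, chr2:180104408-180104657, minus strand: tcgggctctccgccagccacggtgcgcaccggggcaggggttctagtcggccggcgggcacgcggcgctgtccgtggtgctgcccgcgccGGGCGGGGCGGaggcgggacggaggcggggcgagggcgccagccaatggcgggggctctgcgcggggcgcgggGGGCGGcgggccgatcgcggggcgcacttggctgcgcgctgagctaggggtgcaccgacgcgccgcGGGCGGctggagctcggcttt
The 3 windows differ widely in base composition. The Hnmt window had 38.8% G and C, 2 CpG dinucleotides and no GC box, and 9.71% of 32817 mouse promoter windows of that length had a lower G and C content. The Maoa window had 56.8% G and C, 11 CpG and 1 GC box. The Hrh3 window had 80.8% G and C, 42 CpG and 4 GC boxes, of which 2 share bases in the run written in capitals without a break. A GC box was found in 32.7% of all windows, and the median window had 52.4% G and C and 6 CpG. The nuclear receptor half-site AGGTCA, searched on both strands and found in 14.03% of all windows, was in none of these 3 windows. Among the member windows not shown, that of Hrh1 at chr6:114458272-114458521 held 1. A match or its absence describes the letters of the window and nothing about a factor's binding.

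Levels of different genes were compared as CPM per kilobase of merged exon. In wild types Hrh3 had the highest mean level, 12.3 ± 2.15 (SD, n = 6). Hnmt followed at 10.3 ± 0.503, Maoa at 9.34 ± 0.467 and Maob at 8.71 ± 0.716, all with n = 6. Hrh1 and Hrh2 were lower, at 2.94 ± 0.519 and 2.65 ± 0.322. The one step in this order at which the wild-type ranges did not overlap was that from Maob to Hrh1, and Maob exceeded Hrh1 per kilobase in 12 of 12 libraries. The other neighbours overlapped. Hrh3 was above Hnmt in 10 of 12 libraries, Maoa above Maob in 11 of 12, and Hrh1 above Hrh2 in 8 of 12, including 3 of the 6 wild types. Hnmt was above Maoa per kilobase in 6 of 6 wild types and in 7 of all 12 libraries, and the 1 mutant among them was female mutant 3. By the same measure Hdc, the enzyme that makes histamine from histidine, was at 0.332 ± 0.101 in wild types, far under every member. Hrh4, the H4 receptor known mainly from blood cells, was at 0 counts in all 12 libraries, which allows up to 0.137 CPM in the 11 deeper libraries and 1.16 CPM in female mutant 3.

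**Figure D1:**
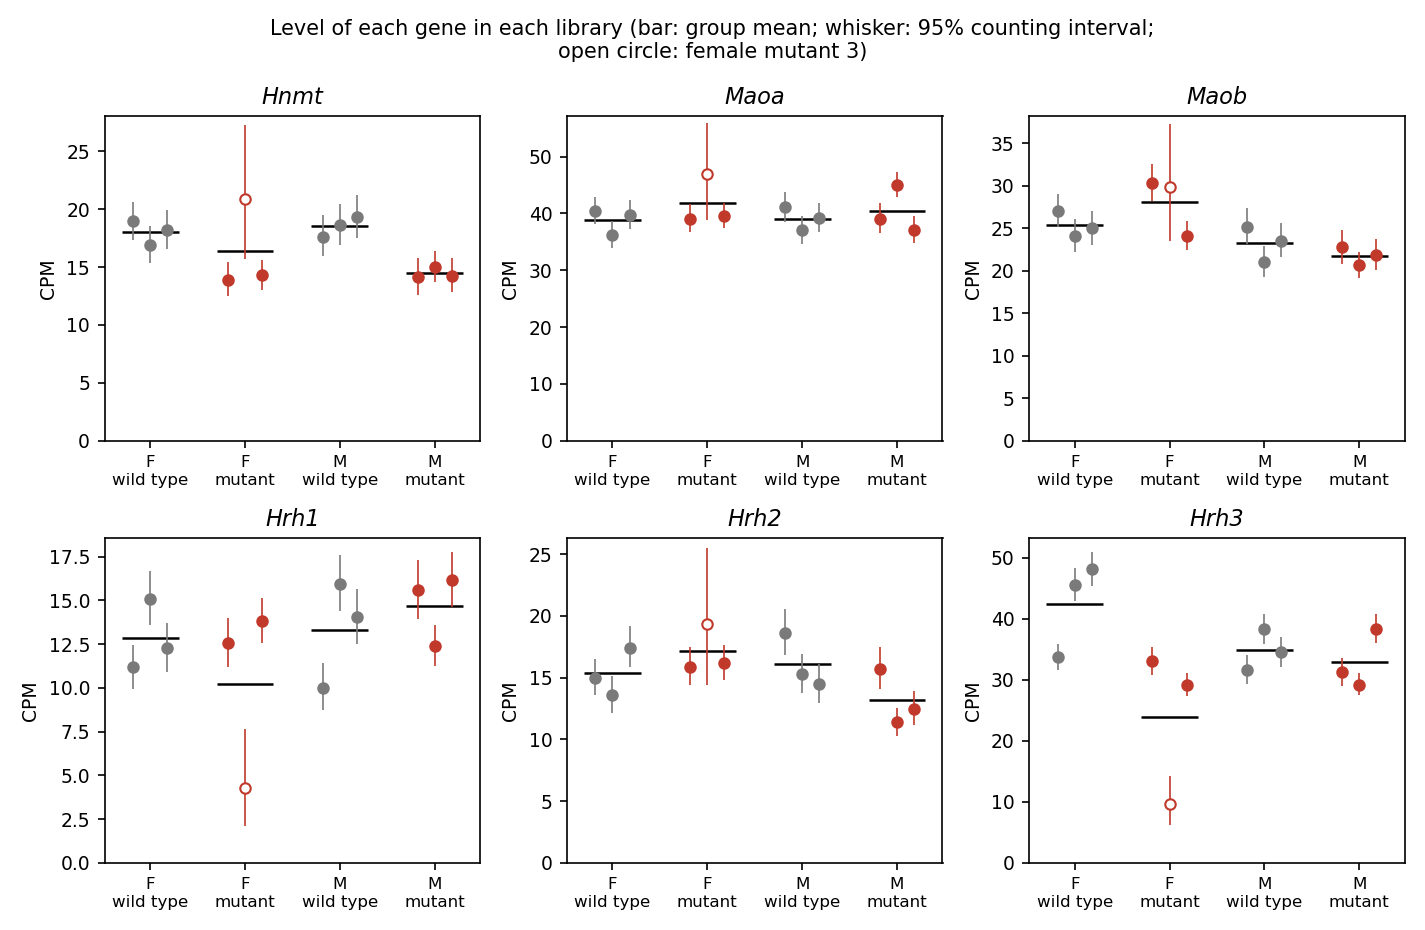
CPM of each of the 6 genes in every library, grouped by sex and genotype, with one point per mouse and the 95% Poisson interval of its count. The mutants other than female mutant 3 sit between 13.9 and 15.0 for Hnmt, under all wild types, and female mutant 3 is at 20.9 for Hnmt and at 4.26 and 9.68 for Hrh1 and Hrh3.

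Hnmt, the methyltransferase that inactivates histamine, was lower in 5 of the 6 mutants than in any wild type. The female wild types 2, 4 and 5 had 18.9, 16.9 and 18.2 CPM, and the male wild types 8, 12 and 13 had 17.6, 18.6 and 19.3. The female mutants 1, 3 and 6 had 13.9, 20.9 and 14.3 CPM, and the male mutants 7, 10 and 27 had 14.1, 15.0 and 14.3. The 5 other mutants lay close together below the wild types, and female mutant 3 lay above them all. Its value rests on 54 counts, with a 95% Poisson interval of 15.7 to 27.3 CPM that covers the whole wild-type range but lies above the other 5 mutants. The wild-type mean was 18.3 ± 0.889 (SD, n = 6) and the mutant mean 15.4 ± 2.72 (n = 6), or 14.3 ± 0.423 (n = 5) without female mutant 3. The log2 fold change of mutant against wild type was -0.28 (SE 0.10), a difference of -17.8%, and -0.36 (SE 0.06), or -21.8%, without female mutant 3. In the other 11 libraries the difference was alike in both sexes, at -0.36 (SE 0.09) in females and -0.35 (SE 0.08) in males. Including female mutant 3 the female value was -0.21 (SE 0.15).

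Because scaling acts on a whole library, Hnmt was also set against Maoa within each library, a ratio chosen after the values had been seen. Hnmt counts were 0.468, 0.467 and 0.458 of the Maoa counts in female wild types 2, 4 and 5 and 0.430, 0.503 and 0.493 in male wild types 8, 12 and 13. In the mutants the ratio was 0.355, 0.446 and 0.361 in females 1, 3 and 6 and 0.361, 0.333 and 0.385 in males 7, 10 and 27. The mean ratio was 0.470 ± 0.026 (SD, n = 6) in wild types and 0.359 ± 0.018 (n = 5) in mutants other than female mutant 3. By this measure female mutant 3 lay inside the wild-type range and above the other mutants. It holds both genes high, since its Maoa level of 46.9 CPM was also the highest of the 12. Against Maob the Hnmt ratio did not separate the genotypes. It ran from 0.701 to 0.885 in wild types and from 0.457 to 0.726 in mutants other than female mutant 3. The means were 0.756 ± 0.078 (SD, n = 6) and 0.610 ± 0.099 (n = 5). Male mutant 10 had the 0.726, and female mutant 3 was at 0.701.

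**Figure D2:**
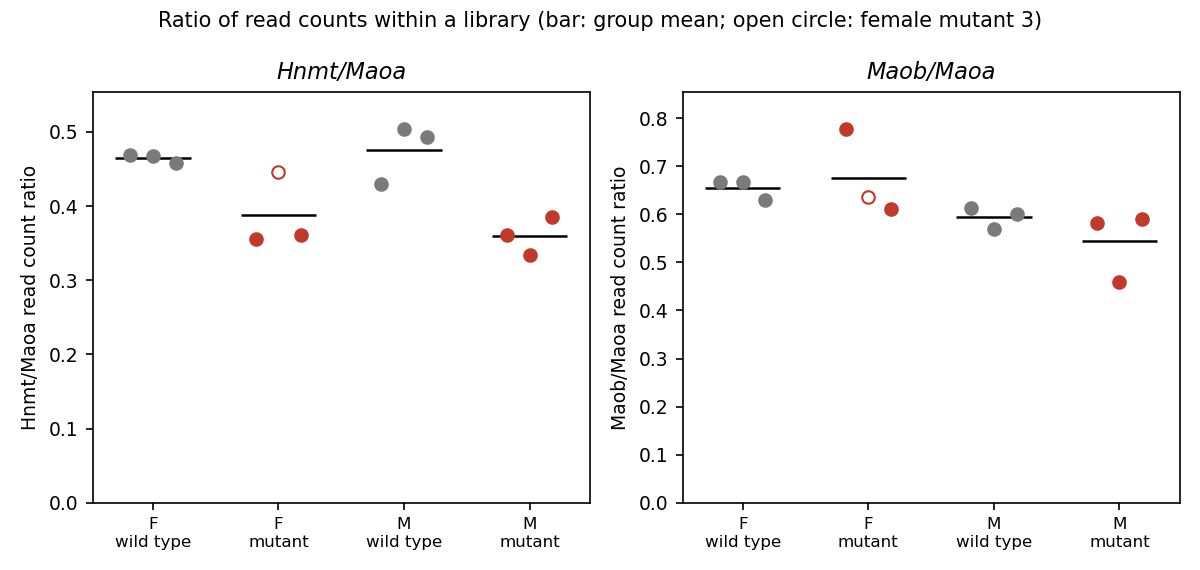
Ratio of counts within each library, Hnmt to Maoa and Maob to Maoa, with one point per mouse by group. For Hnmt to Maoa the 6 wild types lie between 0.430 and 0.503 and the mutants other than female mutant 3 between 0.333 and 0.385. For Maob to Maoa females lie between 0.611 and 0.777 and males between 0.459 and 0.612.

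The levels of the monoamine oxidases showed no separation by genotype like that of Hnmt outside female mutant 3. Maoa had 40.4, 36.1 and 39.7 CPM in female wild types 2, 4 and 5 and 41.0, 37.0 and 39.2 in male wild types 8, 12 and 13. It had 39.1, 46.9 and 39.5 CPM in female mutants 1, 3 and 6 and 39.1, 45.0 and 37.1 in male mutants 7, 10 and 27. The ranges overlapped, with female mutant 3 and male mutant 10 above all other libraries. The log2 fold change of Maoa was 0.07 (SE 0.08), and 0.04 (SE 0.06) without female mutant 3. With unscaled library totals it was -0.02.

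Maob, which oxidises the product of Hnmt, had 27.03, 24.1 and 25.005 CPM in female wild types 2, 4 and 5 and 25.1, 21.0 and 23.5 in male wild types 8, 12 and 13. Female mutants 1, 3 and 6 had 30.4, 29.8 and 24.1 CPM and male mutants 7, 10 and 27 had 22.8, 20.7 and 21.8. The genotypes overlapped across almost their whole range, and female mutants 1 and 3 were the highest libraries. The log2 fold change was 0.02 (SE 0.09), and -0.01 (SE 0.08) without female mutant 3. With unscaled library totals it was -0.06. Among the member enzymes, Hnmt was therefore the one whose log2 fold change was larger than its standard error, and that of Maob, which follows it, was near 0.

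Among the receptors, Hrh3 had the largest difference. Female wild types 2, 4 and 5 had 33.6, 45.6 and 48.1 CPM, and male wild types 8, 12 and 13 had 31.6, 38.2 and 34.5. Female mutants 1, 3 and 6 had 33.02, 9.68 and 29.2 CPM, and male mutants 7, 10 and 27 had 31.2, 29.2 and 38.3. The ranges overlapped, the 2 highest libraries were female wild types, and female mutant 3 was far under all others with 25 counts and a 95% Poisson interval of 6.26 to 14.3 CPM. The means were 38.6 ± 6.77 (SD, n = 6) in wild types, 28.4 ± 9.78 (n = 6) in mutants and 32.2 ± 3.77 (n = 5) without female mutant 3. The log2 fold change was -0.40 (SE 0.22), and -0.24 (SE 0.11) without female mutant 3. It was -0.72 (SE 0.29) in females, or -0.45 (SE 0.16) without that library, and -0.08 (SE 0.28) in males, and the difference between the sexes was not tested.

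Hrh3 is known to be abundant in striatum, and the striatal marker level also varied between libraries. Female wild type 5, the library with the most Hrh3, also had the highest striatal marker sum. Male wild type 12 and female wild type 4 had 38.2 and 45.6 CPM of Hrh3 at sums of 2008 and 1611. Male mutant 10 had 29.2 CPM at the lowest sum, 531. The order did not hold in every library. Female mutant 3 had the lowest Hrh3 level at a striatal sum of 1732 CPM, and male wild type 8 had 31.6 CPM of Hrh3 at a sum of 1713. Male mutant 27 had 38.3 CPM at a sum of 934. The 5 mutants other than female mutant 3 had sums of 531 to 1389 CPM against 864 to 2882 in wild types. With the mean log2 level of these markers as a covariate, the log2 fold change of Hrh3 was -0.32 (SE 0.27), and -0.11 (SE 0.12) without female mutant 3. For Hnmt the same covariate gave -0.29 (SE 0.12), and -0.40 (SE 0.07) without female mutant 3. Whether striatal tissue has a part in either gene's difference was not tested.

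Hrh1, the H1 receptor, had 11.2, 15.1 and 12.3 CPM in female wild types 2, 4 and 5 and 9.999, 15.9 and 14.03 in male wild types 8, 12 and 13. Female mutants 1, 3 and 6 had 12.5, 4.26 and 13.8 CPM, and male mutants 7, 10 and 27 had 15.6, 12.4 and 16.1. Apart from female mutant 3, with 11 counts and an interval of 2.13 to 7.62 CPM, the mutants fell among the wild types or just above them. The log2 fold change was -0.02 (SE 0.20), and 0.09 (SE 0.12) without female mutant 3. Its sign was kept in 8 of the 12 fits that each left out 1 library.

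Hrh2, the H2 receptor, had 15.0, 13.6 and 17.4 CPM in female wild types 2, 4 and 5 and 18.6, 15.3 and 14.5 in male wild types 8, 12 and 13. Female mutants 1, 3 and 6 had 15.9, 19.4 and 16.2 CPM, and male mutants 7, 10 and 27 had 15.7, 11.4 and 12.5. The 2 lowest libraries were male mutants 10 and 27, and the remaining mutants lay within or above the wild-type range. The log2 fold change was -0.09 (SE 0.13), and -0.13 (SE 0.11) without female mutant 3. With the striatal marker mean as a covariate it was 0.06, the opposite sign. Female mutant 3 thus had low values of Hrh1 and Hrh3 and the highest of Hnmt, Maoa and Hrh2, and its low values were for receptors known from neurons while its summed excitatory neuron markers, 3099.9 CPM, were the lowest of the 12 libraries. Their part in the receptor values was not tested.

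**Figure D3:**
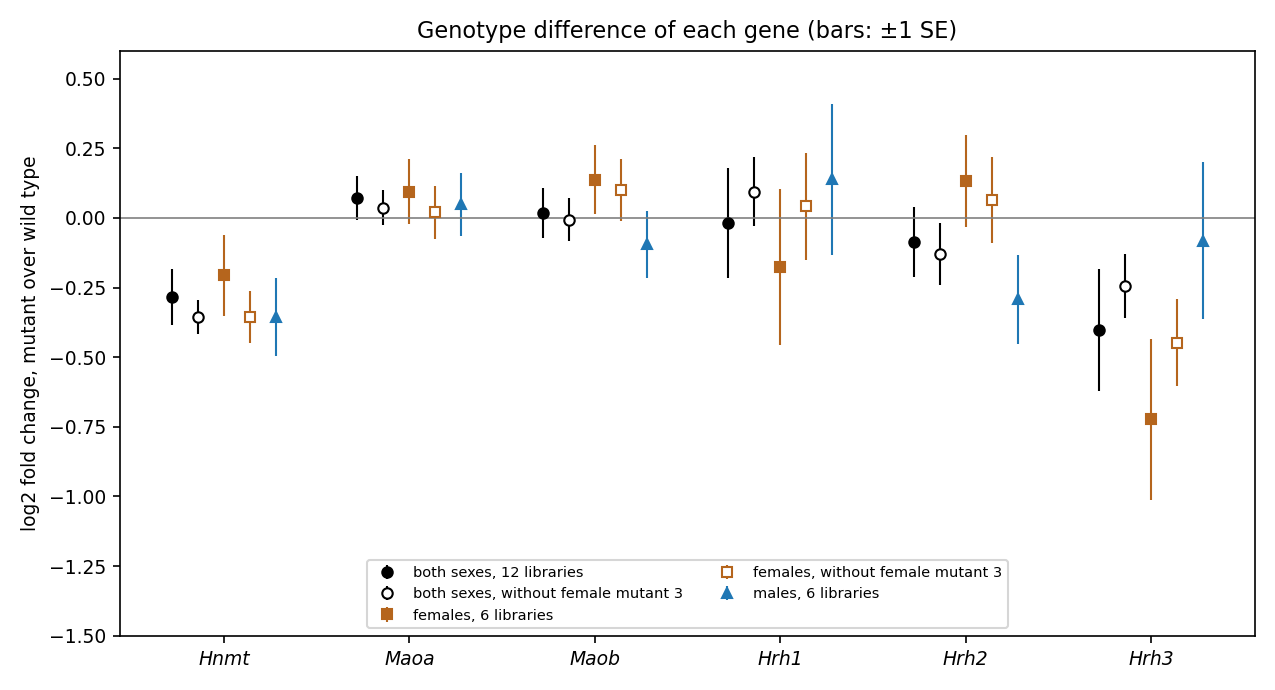
Log2 fold change of mutant against wild type with its standard error for the 6 genes, over both sexes and in each sex, with filled symbols for all libraries and open symbols without female mutant 3. Over both sexes Hnmt moves from -0.28 to -0.36 and Hrh3 from -0.40 to -0.24, and the other 4 genes lie between -0.13 and 0.09 in both fits.

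Calls over the whole table are given for scale only, because the choice of the 6 genes used this contrast. A call of a member is therefore no independent support for its difference. After Benjamini-Hochberg adjustment edgeR called 0 of the 6 genes, where the share called among all 18016 genes tested was 0.00555%. At an unadjusted p under 0.05 it named 1 of 6, Hnmt, against 3.96% of all genes. Without female mutant 3, edgeR again called 0 of 6 after adjustment, against 0.0108% of all genes, and Hnmt alone at an unadjusted p under 0.05, against 7.46%. DESeq2 called 1 of 6, Hnmt, against 0.161% of all genes, and 0.293% without female mutant 3, where it again called Hnmt. Limma-voom with library weights also called Hnmt with and without that library, against 0.122% and 0.0217%, while limma-voom without weights called 0 of 6, against 0.00555%. With all 12 libraries, 0 of 6 members had all mutants below all wild types, against 0.294% of all genes tested. Without female mutant 3, Hnmt was the 1 member with this arrangement, which 0.599% of all genes tested held. In that set 0 of 6 had all mutants above all wild types, against 0.483%. The median log2 fold change was -0.05 over the 6 members and -0.01 over all genes tested.

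Sex was not used to choose the genes and could be tested. Maob, one of the pair of X-linked members, had 26.7 ± 2.81 CPM in females and 22.5 ± 1.68 in males (SD, n = 6 each), with ranges of 24.1 to 30.4 and 20.7 to 25.1 that overlapped. Its log2 fold change of female against male was 0.24 (SE 0.09), with an adjusted p of 0.897 by edgeR's quasi-likelihood test, so the difference did not pass. In 25 alternative fits its value lay between 0.14 and 0.28. Maoa, its neighbour on the X chromosome, had 40.3 ± 3.54 CPM in females and 39.7 ± 3.00 in males and a log2 fold change of 0.01 (SE 0.08). Within libraries the ratio of Maob to Maoa counts was 0.665 ± 0.059 in females and 0.569 ± 0.056 in males (SD, n = 6 each), again a ratio chosen after the values had been seen. The other members had sex differences of 0.03 (SE 0.10) for Hnmt, -0.21 (SE 0.20) for Hrh1, 0.13 (SE 0.13) for Hrh2 and -0.03 (SE 0.22) for Hrh3. Without female mutant 3 the values were 0.22 (SE 0.08) for Maob, -0.02 for Maoa, -0.04 for Hnmt, -0.10 for Hrh1, 0.09 for Hrh2 and 0.13 (SE 0.11) for Hrh3. The signs for Maoa, Hnmt and Hrh3 thus changed. Of the 12 fits that each left out 1 library, 8, 11 and 10 kept the sign for these 3 genes. By edgeR 0 of 6 were called, with adjusted p of 0.897 to 0.981, against 0.0389% of all genes, and 1 of 6, Maob, had an unadjusted p under 0.05, against 1.77%. DESeq2 and both forms of limma-voom called 0 of 6 as well.

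Around the members, 74 further genes in 6 lists were examined, of which 65 passed the filter on low counts. For mutant against wild type 28 had a positive and 37 a negative log2 fold change, with a median of -0.04 against -0.01 over all genes tested. Without female mutant 3 there were 30 and 35, with a median of -0.01. EdgeR called 0 of 65, with adjusted p of 0.950 to 0.999. At an unadjusted p under 0.05 there were 4, against 3.96% of all genes, and without female mutant 3 there were 10, against 7.46%, with 0 called. DESeq2 and both forms of limma-voom likewise called 0.

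Histamine synthesis, storage and uptake gave 5 tested genes of 7, with 3 higher and 2 lower and a median of 0.02, or 0.11 with the same split without female mutant 3. Slc22a3, the organic cation transporter OCT3 that takes up histamine and monoamines at low affinity, had 2.17 ± 0.683 CPM in wild types and 1.14 ± 0.626 in mutants, with log2 fold changes of -0.76 (SE 0.30), and -0.68 (SE 0.24) without female mutant 3, and no call after adjustment. Slc18a2, the vesicular monoamine transporter, varied widely within each genotype, at 3.79 ± 3.23 and 4.87 ± 4.15 CPM, with log2 fold changes of 0.47 (SE 0.79), and 0.55 without female mutant 3. Slc22a2, a related cation transporter, was near the detection floor at 0.266 ± 0.201 and 0.342 ± 0.065 CPM, and differed by 0.36 (SE 0.46), or 0.35 without that library. Hdc lay at 1.46 to 3.15 CPM in wild types and at 0 to 3.41 in mutants, the 0 being that of female mutant 3.

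In monoamine synthesis and reuptake 9 of 14 genes were tested, 5 higher and 4 lower, with a median of 0.05, or 0.12 with the same split without female mutant 3. Qdpr, which regenerates the tetrahydrobiopterin cofactor of the aromatic amino acid hydroxylases, had 140.2 ± 15.0 CPM in wild types and 114.5 ± 41.3 in mutants, and its log2 fold change of -0.32 (SE 0.20) became -0.17 (SE 0.14) without female mutant 3. Ddc, which makes dopamine and serotonin from their amino acid precursors, had 6.94 ± 3.00 and 8.73 ± 3.76 CPM, and Spr, which makes tetrahydrobiopterin, 8.36 ± 1.04 and 8.85 ± 1.62. Without female mutant 3 the log2 fold change of Ddc went from 0.35 to 0.38 and that of Spr from 0.11 to 0.17. The untested genes of this list included the noradrenaline and serotonin transporters Slc6a2 and Slc6a4, whose transcripts are known from brainstem cell bodies.

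Among other genes of monoamine breakdown all 12 were tested, with 3 higher and 9 lower and a median of -0.06. Without female mutant 3 the same list had 8 higher and 4 lower and a median of 0.03. Aldh1b1, a mitochondrial aldehyde dehydrogenase, had 7.01 ± 0.962 CPM in wild types and 4.79 ± 2.37 in mutants, with a count of 0 in female mutant 3 and log2 fold changes of -0.41 (SE 0.28), and -0.28 (SE 0.11) without it. Aoc3, a copper amine oxidase of vessels, had 0.647 CPM in wild types and 0.852 in mutants, with log2 fold changes of 0.43 (SE 0.29) and 0.44.

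The supply of methyl donor and flavin cofactor, used by Hnmt and by the oxidases, gave 3 of 9 genes higher and 6 lower, with a median of -0.12, and 2 higher and 7 lower with a median of -0.03 without female mutant 3. Mat2b, the regulatory subunit of the enzyme that makes S-adenosylmethionine, had 96.6 ± 10.2 CPM in wild types and 78.6 ± 14.6 in mutants, with log2 fold changes of -0.30 (SE 0.12), and -0.22 (SE 0.08) without female mutant 3, and no call after adjustment. Ahcyl2, related to the hydrolase that clears S-adenosylhomocysteine, differed by -0.13 (SE 0.11), or -0.05 without that library, and Nnmt, another methyltransferase that uses the same donor, lay at 0.281 and 0.373 CPM, with log2 fold changes of 0.59 (SE 0.29) and 0.65.

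The G proteins and effectors of histamine receptors split into 9 higher and 9 lower, with a median of -0.003, and again 9 and 9 with a median of -0.004 without female mutant 3. All 3 named genes here are adenylyl cyclases, which make cyclic AMP. Adcy5, the main cyclase of striatum, had 269 ± 82.1 CPM in wild types and 174 ± 54.4 in mutants, and its log2 fold change of -0.61 (SE 0.24) became -0.47 (SE 0.19) without female mutant 3, -0.20 with the striatal marker covariate, and 0.01 with that covariate and without female mutant 3. Adcy1 and Adcy9 differed by -0.26 (SE 0.13) and -0.21 (SE 0.10), or by -0.16 and -0.14 without female mutant 3.

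For comparison with another family of amine receptors, 12 of 14 serotonin receptor genes were tested, with 5 higher and 7 lower and a median of -0.08, or 3 higher and 9 lower and a median of -0.09 without female mutant 3. Htr1d had 4.06 ± 1.24 CPM in wild types and 2.20 ± 0.997 in mutants, a log2 fold change of -0.81 (SE 0.28), or -0.77 (SE 0.27) without female mutant 3. Htr2a and Htr1b, further serotonin receptors, differed by -0.21 (SE 0.14) and -0.29 (SE 0.23), or by -0.31 (SE 0.11) and -0.42 (SE 0.20) without that library. None of the 3 passed adjustment.

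**Figure D4:**
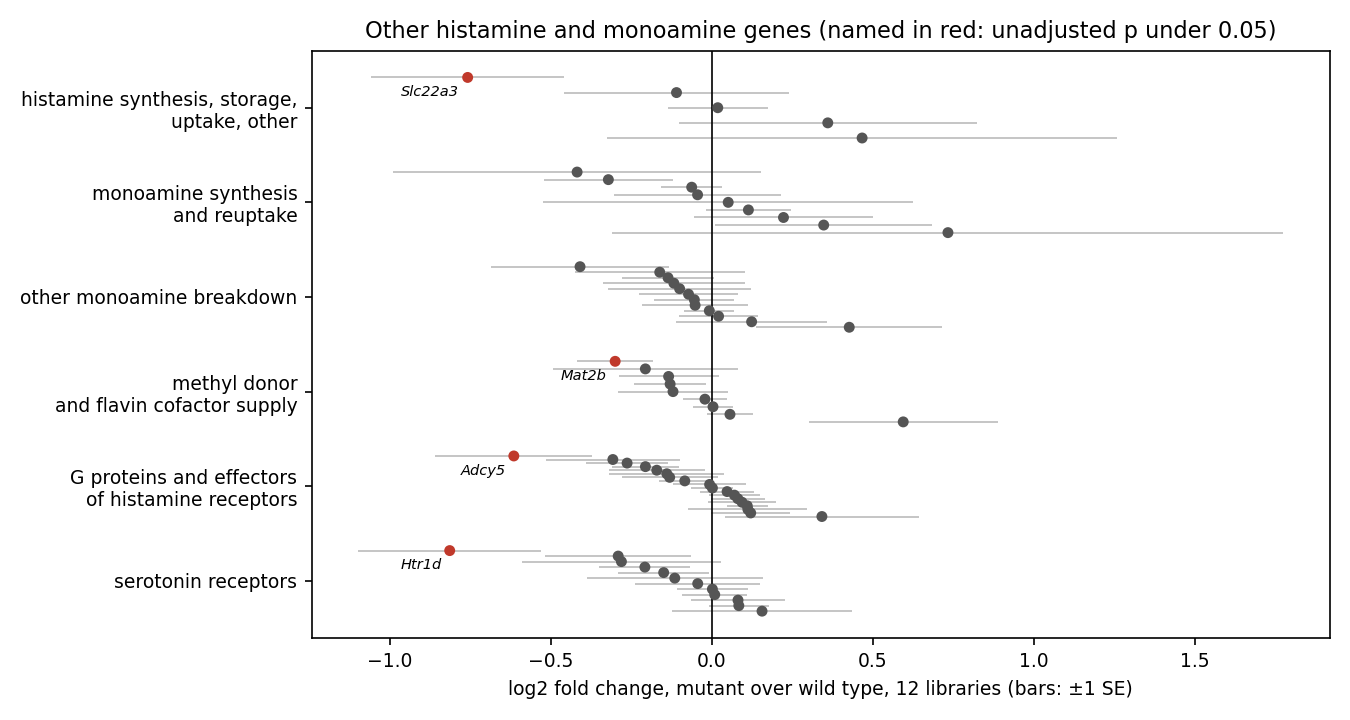
Log2 fold change of mutant against wild type for each tested gene of the 6 further lists, one point per gene, with bars of 1 SE and genes of unadjusted p under 0.05 in red. The list medians lie between -0.12 and 0.05, and 0 of the 65 genes were called.

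Cell type markers were read beside the members. Inhibitory neuron markers summed to 1198 to 1429 CPM in wild types and to 1118 to 1186 in the 5 mutants other than female mutant 3, which had 1283. The place of female mutant 3 in this sum came mainly from Gad2, at 622.6 CPM the highest of the 12 libraries, while it was the lowest library for Gad1 (242.0 CPM), Slc32a1 (25.2), Sst (43.4) and Reln (76.3). Of the 11 markers 6 were lower and 5 higher in mutants, and 9 lower and 2 higher without female mutant 3. In each fit 2 of the lower ones had an unadjusted p under 0.05. Over all genes tested the share at that threshold was 3.96%, and 7.46% without that library. Astrocyte markers summed to 5547 to 6017 CPM in wild types, 5287 to 5667 in those 5 mutants and 7143 in female mutant 3, with 7 of 12 higher and 5 lower and 3 of the higher ones at an unadjusted p under 0.05. Without that library 6 were higher and 6 lower, 5 and 2 of them at an unadjusted p under 0.05. In female mutant 3 Slc1a2 alone made up 5327 CPM of the sum, and the library was the lowest of the 12 for Aldh1l1 (23.6 CPM), Fgfr3 (20.9) and Agt (3.87). Microglial markers summed to 329 to 367 CPM in wild types and 299.7 to 344 in mutants, with 10 of 12 lower, or 9 without female mutant 3. The part of these cell types in the Hnmt values was not tested.

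Of the histamine-producing cells, mast cells left little trace in the libraries. Hdc, which makes histamine, was at 1.46 to 3.15 CPM in wild types and 0 to 3.41 in mutants. Of 10 mast cell markers, 9 were at or under 0.364 CPM in every library, the defining protease genes Cpa3 and Cma1 reached at most 0.315 and 0.137 CPM, and only Kit, which neurons also express, passed the filter. Markers of hypothalamic aminergic and midbrain neurons summed to 5.61 to 47.1 CPM in wild types and 4.07 to 53.8 in mutants, overlapping across genotypes but spread widely between libraries of the same group. Of the 6 tested, 3 were higher and 3 lower, or 2 and 4 without female mutant 3. Excitatory neuron markers summed to 3817 to 4641 CPM in wild types and 3099.9 to 4799 in mutants, with 2 of 12 higher and 10 lower, or 3 and 9 without female mutant 3. Oligodendrocyte markers were 5 higher and 5 lower, but 8 higher and 2 lower without that library. Endothelial and mural markers were 4 higher and 8 lower, or 5 and 7 without it, and meningeal markers 7 higher and 4 lower, or 9 and 2. Choroid plexus markers were 3 higher and 7 lower and all 5 tested blood cell markers were higher, in both fits. The wild-type and mutant sums of these 6 lists overlapped, and in the marker lists as a whole edgeR called 0 genes after adjustment.

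**Figure D5:**
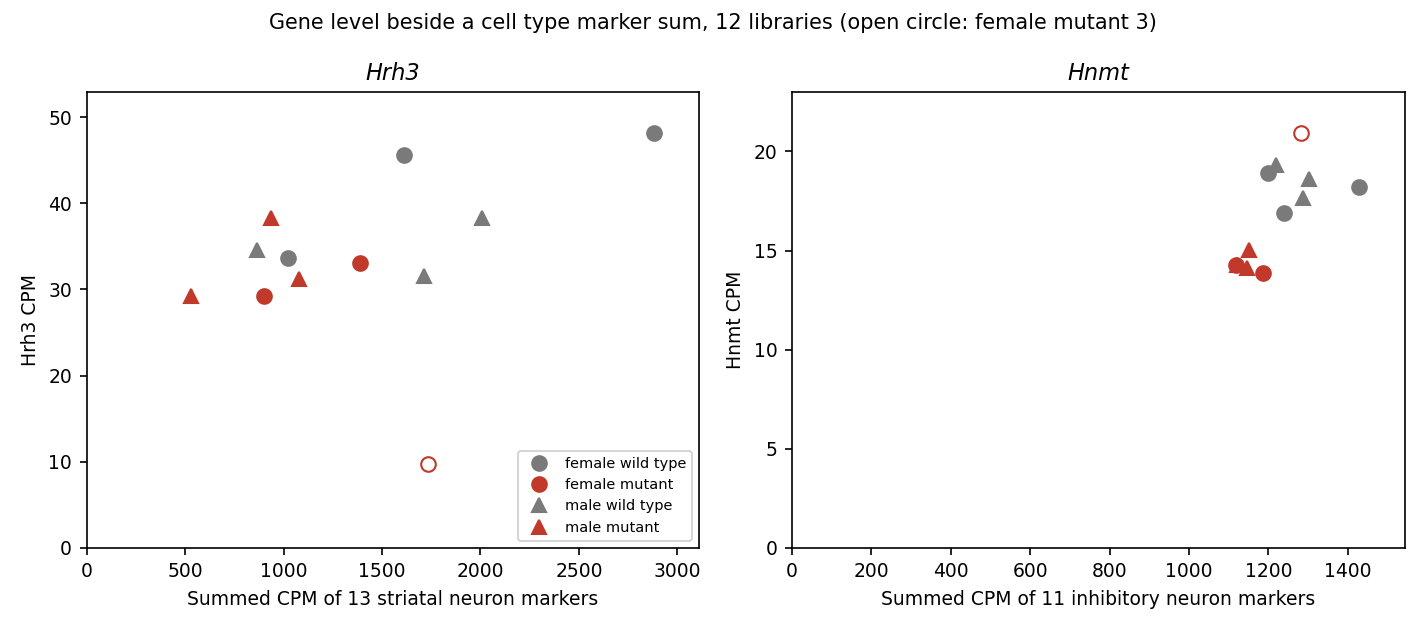
Level of Hrh3 against the summed striatal markers and of Hnmt against the summed inhibitory neuron markers, both in CPM, with one point per mouse and female mutant 3 as an open circle. Among the 12 marker lists, the inhibitory one is the only list whose genotype sums do not overlap without female mutant 3. Its place beside Hnmt is thus no independent link and was not tested. The 5 mutants with the lowest Hnmt also have the 5 lowest inhibitory neuron sums (1118 to 1186 CPM). Within the wild types the order differs: female 5 has the highest inhibitory sum (1429 CPM) at 18.2 CPM of Hnmt, and male 13 has the highest Hnmt (19.3 CPM) at a sum of 1220. Female wild type 5 is highest for both Hrh3 and the striatal sum (2882 CPM).

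The genes whose levels followed each member most closely were read from log2 CPM over the 11 deeper libraries, with the mean of each sex and genotype group removed, among 13254 genes. These values describe the libraries and no more, since they were picked as the highest of that many and the libraries also share differences in depth and in the marker levels given above. For Hnmt they were H3f3aos (Pearson r 0.924, Spearman rho 0.927), Pgm5 (0.911 and 0.864) and Wdr12 (0.899 and 0.882). Maoa was followed by Orc3 (0.967 and 0.955), Ceacam1 (0.957 and 0.909) and Ggact (0.950 and 0.936), and Maob by Crybg1 (0.941 and 0.955), Gabrg1 (0.935 and 0.909) and Nrap (0.930 and 0.927). Hrh1 was followed by Polr2d (0.990 and 0.991), Arfgap1 (0.977 and 0.955) and Armc9 (0.973 and 0.964). Hrh2 was followed by Tmem196 (0.976 and 0.918), Spen (0.972 and 0.964) and Tmem104 (0.971 and 0.964), and Hrh3 by Tcap (0.961 and 0.973), Hras (0.948 and 0.964) and Tfe3 (0.946 and 0.973). The 18 genes are all different, and no member is among them.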

How the data were processed

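mRNA libraries of 12 mouse cortices, 1 per mouse, were sequenced as paired reads. The authors deposited whole-number read counts by Ensembl gene for all 12 libraries and used Trimmomatic 0.36, HISAT2 2.1.0, HTSeq 0.11 and Cufflinks with GRCm38.p6, per the submitters' processing notes. Neither the labels nor those notes state the strand setting or annotation release, and counting without strand would mix antisense reads into a gene. Of 54232 identifiers, 54165 matched GENCODE M21. Genes were fitted with edgeR 4.0.16 in R 4.3.3 (TMM scaling, filterByExpr over the 4 groups of sex and genotype, quasi-likelihood fit with terms for sex and genotype), leaving 18016 genes, with Benjamini-Hochberg adjustment over all of them and a threshold of 0.05. Standard errors are the absolute log2 fold change divided by the square root of F. Per-library intervals are exact Poisson intervals at 95% and cover counting error only. Lengths are merged GENCODE exons. Alternatives were DESeq2 1.42.0, limma 3.58.1 (voom, with and without library weights), other scalings, filters and covariates, and leaving out each library. The labels say that the 12 libraries come from 12 mice.

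The members and the gene lists were chosen with earlier results of these data known. The genes named are the 6 members, the 3 genes of smallest p in each further list, and the 3 genes of highest Pearson r with each member. For that last choice only, genes under a mean of 1 CPM or with provisional symbols were left out. A named gene of the further lists is not reported here. Marker lists covered astrocytes, microglia, mast cells, endothelial and mural cells, meninges, choroid plexus, striatal, excitatory and inhibitory neurons, oligodendrocytes, blood cells, and hypothalamic aminergic and midbrain neurons. The fitting code was tested on simulated counts.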

Additional observations from a re-analysis of the deposited data

Results flagged for a closer look

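Among the 6 mutant libraries, female mutant 3 was far from the rest for 3 of the 6 genes, by the gap to its nearest neighbour as a share of the whole range, with a critical value of 0.625. Its Hnmt level of 20.9 CPM was the highest, with a gap of 0.840 of the range. Its Hrh1 level of 4.26 CPM and its Hrh3 level of 9.68 CPM were the lowest, each with a gap of 0.682. Chance alone flags about 1 in 20 groups, and 12 groups were examined. This library also had the fewest counts and the highest mitochondrial share, and the part of these in the 3 values was not tested.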

How the results depend on the processing

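The genotype values of the 6 members were recomputed in 25 alternative fits, 3 of which were added after the data had been seen (DESeq2, weighted limma-voom and the striatal covariate, each without female mutant 3). Hnmt ran from -0.40 to -0.25 and Hrh3 from -0.49 to -0.11, both negative in 25 of 25. Hrh3 was at -0.40 over all libraries and at -0.24 when female mutant 3 was left out. Maoa ran from -0.02 to 0.10, Maob from -0.06 to 0.06, Hrh1 from -0.11 to 0.15 and Hrh2 from -0.16 to 0.06, so none of these 4 had one sign throughout. With unscaled library totals the median of all genes was -0.08 and all 6 members were negative. The count of the further pathway genes called, and of members called for sex, was 0 in all 25. Over all genes the genotype fit called 1, DESeq2 29 and weighted limma-voom 22. Leaving out female mutant 3 gave 2 with edgeR, 53 with DESeq2 and 4 with weighted limma-voom, and leaving out any of the other 11 libraries gave 0. For sex the counts were 7 in the main design and 6 to 13 in the alternatives, with 12 for DESeq2. No paired analysis was possible because no animal number is shared between the groups. Depth limits female mutant 3, where Hrh1 rests on 11 counts and Hrh3 on 25.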
